A study of Mus musculus with 4 samples.

Results

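The 10 genes described here encode telomerase, its partners and the CST complex, and they were chosen by name from a table of 24116 genes. They comprised the telomerase RNA (Terc), the reverse transcriptase (Tert), the H/ACA ribonucleoprotein genes Dkc1, Nop10, Nhp2 and Gar1, the Cajal body factor Wrap53, and the CST genes Ctc1, Stn1 and Ten1. Poly(A) RNA of mouse embryonic stem cells (ESCs) was sequenced in 4 libraries, 2 from WT ESCs and 2 from G3 Terc-/- ESCs. Both lines were of the C57BL/6 background and grew on feeder cells in medium with serum and LIF. The G3 Terc-/- line came from blastocysts of Terc-/- parents of the generation before and is a Terc knockout. Since 1 ESC line stood for each genotype, genotype and line cannot be told apart. The 2 libraries of a line were described as biological replicates, and p-values measure only the spread between these libraries.

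Telomerase copies a short template in Terc onto chromosome ends with the reverse transcriptase Tert. Dyskerin (Dkc1), Nop10, Nhp2 and Gar1 bind the H/ACA domain of Terc, as they bind many small nucleolar and Cajal body RNAs, and Wrap53 brings the particle to Cajal bodies and telomeres. CST binds single-stranded telomeric DNA, ends extension by telomerase and recruits DNA polymerase alpha-primase to fill in the complementary strand. ESCs are known for active telomerase, so the question here was how these genes were expressed in a line that cannot make telomerase RNA.

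The libraries held between 18047995 and 22520017 counts on genes. Of the 10 genes, 9 passed the filter on low counts and Terc did not. At a Benjamini-Hochberg adjusted p-value under 0.05, the call used throughout, Tert and Dkc1 were higher in G3 Terc-/- ESCs and Nop10, Nhp2, Gar1 and Ten1 were lower, while Wrap53, Ctc1 and Stn1 were not called. The background was high, since 43.5% of the 14896 genes tested were called, 21.7% as higher and 21.8% as lower. The fold change of none of the 9 genes reached 2, so that 0 of 9 passed the study's cutoffs (a fold change over 2 and an unadjusted p-value under 0.05), which 7.85% of all genes passed, 4.73% as higher and 3.13% as lower. By the unadjusted p-value alone, the same 6 of 9 were under 0.05. Adjustment only raises p-values, so at least 43.5% of all genes tested were under 0.05 as well. The median log2 fold change of the 9 genes was 0.0224, beside 0.00625 for all genes tested, whose middle values (interquartile range) ran from -0.21 to 0.25.

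**Figure D1:**
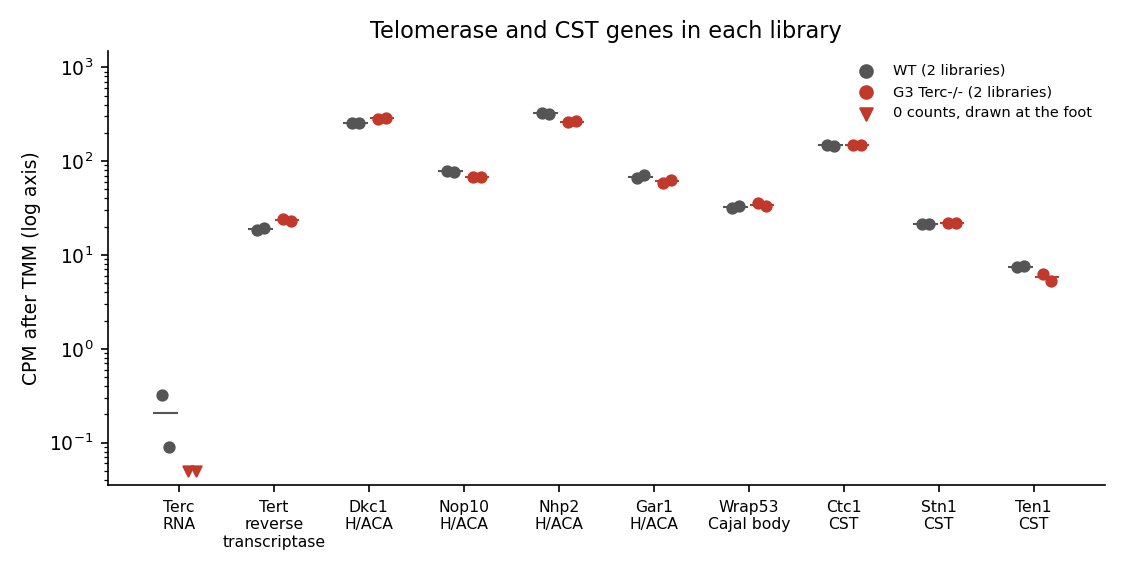
Counts per 1000000 counts of a library (CPM, log axis) after normalization of library sizes with trimmed means of M values (TMM) for the 10 genes, with a point for each library and a line at the mean of a genotype. Terc had 0 counts in both G3 Terc-/- libraries, drawn as triangles at the foot, and the shifts of the other genes were small beside the range of their levels, from 7.52 CPM for Ten1 to 322 CPM for Nhp2 in WT.

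Levels were compared between genes as RPKM, the TMM-scaled CPM divided by the length of the exons in kilobases. In WT ESCs, Nhp2 was highest at 281 RPKM, followed by Nop10 at 70.4, Dkc1 at 62.4 and Gar1 at 39.8. Ctc1 stood at 21.6 RPKM, Wrap53 at 15.8 and Stn1 at 5.27. Tert, known as the limiting protein of telomerase in many cells, had 3.30 RPKM, Ten1 had 2.76 and Terc had 0.486. In G3 Terc-/- ESCs the order was the same except that Dkc1, at 69.1 RPKM, stood above Nop10, at 60.5. No pair of neighbours in either order had overlapping replicates, but with the length of the longest transcript in place of all exons Dkc1 stood above Nop10 in WT as well. The levels per length of Tert and Ten1 differed by 1.20 times in WT and by 1.94 times in G3 Terc-/- ESCs.

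Terc (gene identifier 21748, chromosome 3 from 96414437 to 96414833 of GRCm38, minus strand) was the deleted gene and a check of the labels. The WT libraries held 7 and 2 counts of Terc, and both G3 Terc-/- libraries held 0. The 9 counts of WT have a 95% Poisson interval from 4.12 to 17.1, which covers counting error only. With 3 counts as the limit that a count of 0 allows over the group, Terc was at least 2.76-fold lower in G3 Terc-/- ESCs (0.205 CPM over both WT libraries against a floor of 0.0742 CPM), if the 9 counts are taken as exact. At the low end of their interval the ratio to that floor was 1.26. It rested on WT replicate 1, without which the 2 counts of WT replicate 2 gave a ratio of 1.22 with a counting interval from 0.147 to 4.39, and without WT replicate 2 it was 4.32. Terc RNA has no poly(A) tail like that of an mRNA, so that few counts are obtained from poly(A) RNA and these do not measure its abundance. The template is shown with its surroundings because it is the part of Terc that telomerase copies. The stretch runs from base 4 to base 63 of the 423-base transcript of GENCODE M21, as DNA letters. The RefSeq span of Terc given above is shorter, at 397 bases, so part of the stretch may lie outside the RNA. Capitals mark the letters CTAACCC at bases 29 to 35, which were searched for as template. The exact ends of the template were not determined. These letters occur once in the transcript, and their reverse complement, GGGTTAG, reads through the telomeric repeat.
Terc template region: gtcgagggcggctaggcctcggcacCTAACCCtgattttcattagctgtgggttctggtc

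Tert (gene identifier 21752, chromosome 13 from 73626911 to 73649843, plus strand) was counted 407 and 426 times in WT libraries and 537 and 415 times in G3 Terc-/- libraries. After scaling to library size, both G3 Terc-/- libraries lay above both WT libraries, at 23.5 ± 1.04 CPM (SD, n = 2) against 18.9 ± 0.407 CPM (SD, n = 2). The log2 fold change was 0.31 (standard error, SE, 0.09, 95% interval 0.13 to 0.50, edgeR adjusted p = 0.00468), a rise of 24.2%. Of all genes tested, 38.9% had a larger change in size. The call was lost without WT replicate 1 (edgeR adjusted p = 0.06) and with DESeq2 (adjusted p = 0.0654), at log2 fold changes of 0.29 and 0.31. Bulk libraries cannot tell more cells with Tert from more Tert RNA per cell, nor fewer cells from less RNA for the genes below. The 250 bases before the start of Tert in the RefSeq annotation of GRCm38.p6 (chr13:73626661-73626910, plus strand) are shown because Tert had the largest rise of the 9 genes. Capitals mark 2 copies of the GC-box GGGCGG, written on this strand as CCGCCC, a motif of Sp1-type factors.
Tert upstream: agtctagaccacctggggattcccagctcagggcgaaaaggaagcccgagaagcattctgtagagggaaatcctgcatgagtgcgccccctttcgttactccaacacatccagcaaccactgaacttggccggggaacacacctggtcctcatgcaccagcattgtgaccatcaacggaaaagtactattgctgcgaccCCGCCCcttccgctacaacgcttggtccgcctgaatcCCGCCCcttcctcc

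The H/ACA genes did not move together. Dkc1, the pseudouridine synthase of the complex, was higher, whereas Nop10, Nhp2 and Gar1, which encode its small partner proteins, were lower. Dkc1 (gene identifier 245474, X chromosome from 75095854 to 75109776, plus strand) held 5630 and 5683 counts in WT against 6206 and 5278 in G3 Terc-/- libraries. Its level was 257 ± 1.07 CPM (SD, n = 2) in WT and 285 ± 6.67 CPM (SD, n = 2) in G3 Terc-/- ESCs, without overlap of the libraries. The log2 fold change of 0.15 (SE 0.05, 95% interval 0.05 to 0.25, edgeR adjusted p = 0.0147) was a rise of 10.7%, and 65% of all genes had a larger change. It was not called without WT replicate 1 (edgeR adjusted p = 0.146) or without WT replicate 2 (adjusted p = 0.178). A stretch of 45 exonic bases of Dkc1 lies opposite Mpp1, a gene of the other strand that was also called higher by 0.23 on the log2 scale (edgeR adjusted p = 0.0065, but 0.0956 and 0.0519 when WT replicate 1 or 2 was left out and 0.0542 from DESeq2). The strand setting of the counts is not given in the sources used here, and the part of reads from Mpp1 in the counts of Dkc1 was not tested.

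Nhp2 (gene identifier 52530, chromosome 11 from 51619773 to 51623718, plus strand), an RNA-binding protein of the L7Ae family, had the smallest adjusted p-value of the 9 genes. Its counts of 7057 and 7110 in WT compare with 5749 and 4833 in G3 Terc-/- libraries. The level fell from 322 ± 1.76 CPM (SD, n = 2) to 262 ± 3.99 CPM (SD, n = 2), and the G3 Terc-/- libraries both lay below the WT libraries. The log2 fold change was -0.30 (SE 0.05, 95% interval -0.40 to -0.20, edgeR adjusted p = 3.1e-06), a change of -18.6%. Nhp2 was called lower under all 11 alternatives that give single genes, with adjusted p-values up to 0.001. Its overlap with Rmnd5b on the other strand was 44 bases long, and Rmnd5b was not called (edgeR adjusted p = 0.677).

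Nop10 (gene identifier 66181, chromosome 2 from 112261926 to 112262898, plus strand), a small protein that binds the catalytic domain of dyskerin, had 1725 and 1709 counts (WT) against 1484 and 1229 (G3 Terc-/-). Levels were 78.0 ± 1.35 CPM (SD, n = 2) in WT and 67.1 ± 0.311 CPM (SD, n = 2) in G3 Terc-/- ESCs, with no overlap. The log2 fold change of -0.22 (SE 0.06, 95% interval -0.34 to -0.09, edgeR adjusted p = 0.00448) was called, although not without WT replicate 1 (adjusted p = 0.0814). Gar1 (gene identifier 68147, chromosome 3 from 129824912 to 129831407, minus strand), which takes the place of Naf1 in the mature particle, had 1438 and 1566 counts (WT) against 1288 and 1161 (G3 Terc-/-). Gar1 stood at 68.2 ± 3.38 CPM (SD, n = 2) in WT and 60.9 ± 3.93 CPM (SD, n = 2) in G3 Terc-/- ESCs, without overlap of the libraries. A log2 fold change of -0.17 for Gar1 (SE 0.07, 95% interval -0.30 to -0.03, edgeR adjusted p = 0.041) was lost under 6 of 11 alternatives. The adjusted p-value of Gar1 from edgeR came to 0.0621 and 0.379 when WT replicate 1 or 2 was left out (log2 fold changes of -0.22 and -0.12) and to 0.24 without G3 Terc-/- replicate 1 (-0.11), and it was 0.142 from DESeq2. Without G3 Terc-/- replicate 2, Gar1 stayed called at -0.23.

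Ratios of counts within a library do not depend on the scaling of library sizes. For every count of Dkc1 the WT libraries had 1.253 and 1.251 counts of Nhp2 and the G3 Terc-/- libraries 0.926 and 0.916, a change of -26.5%. The ratio of Nop10 to Dkc1 went from 0.306 and 0.301 to 0.239 and 0.233, a change of -22.3%. For Gar1 the ratios were 0.255 and 0.276 in WT against 0.208 and 0.220 in G3 Terc-/- libraries, a change of -19.5%. The genotypes were thus separated in each of these ratios, which with 2 libraries against 2 cannot reach a p-value under 0.333 in a two-sided exact permutation test. These ratios share the denominator Dkc1, so that its rise of 10.7% enters each of them, and Nhp2 alone changed by -18.6%. The share of all gene pairs separated in this way was not computed. Of all single genes tested, 70.4% did not overlap between genotypes. Tert gave 0.0723 and 0.0750 counts for each count of Dkc1 in WT against 0.0865 and 0.0786 in G3 Terc-/- libraries, and this ratio too was separated.

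**Figure D2:**
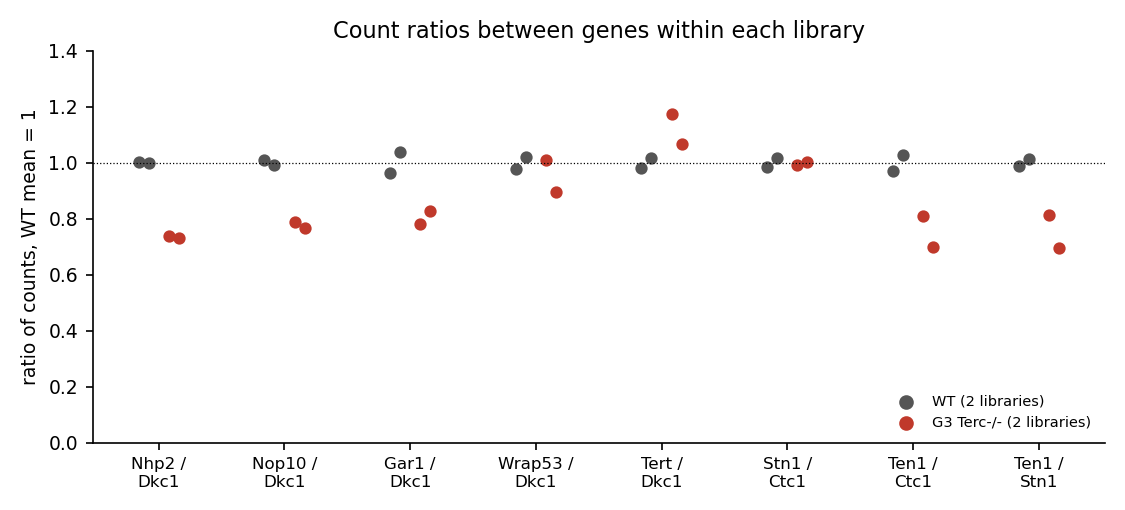
Ratios of the counts of pairs of genes within each library, divided by the mean ratio of the WT libraries (linear axis from 0, a point for each library). Nhp2, Nop10 and Gar1 relative to Dkc1 lie below 1 in both G3 Terc-/- libraries, the ratios of Wrap53 to Dkc1 and of Stn1 to Ctc1 overlap between genotypes, and Ten1 is lower relative to both Ctc1 and Stn1.

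The 250 bases before the starts of the 4 H/ACA genes are shown together, in the direction of transcription, because 3 of them fell and 1 rose. Their positions in GRCm38.p6 are chrX:75095604-75095853, plus strand (Dkc1), chr2:112261676-112261925, plus strand (Nop10), chr11:51619523-51619772, plus strand (Nhp2) and chr3:129831397-129831646, minus strand (Gar1). Capitals mark the GC-box, on either strand.
Dkc1 upstream: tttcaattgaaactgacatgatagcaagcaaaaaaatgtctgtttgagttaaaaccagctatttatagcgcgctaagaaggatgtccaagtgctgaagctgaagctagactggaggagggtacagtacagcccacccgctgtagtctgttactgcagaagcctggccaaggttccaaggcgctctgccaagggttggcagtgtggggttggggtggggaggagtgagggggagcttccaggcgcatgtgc
Nop10 upstream: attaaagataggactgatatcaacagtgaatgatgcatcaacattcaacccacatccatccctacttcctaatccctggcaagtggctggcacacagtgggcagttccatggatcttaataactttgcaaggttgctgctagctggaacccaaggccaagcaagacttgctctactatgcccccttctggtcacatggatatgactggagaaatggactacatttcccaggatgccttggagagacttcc
Nhp2 upstream: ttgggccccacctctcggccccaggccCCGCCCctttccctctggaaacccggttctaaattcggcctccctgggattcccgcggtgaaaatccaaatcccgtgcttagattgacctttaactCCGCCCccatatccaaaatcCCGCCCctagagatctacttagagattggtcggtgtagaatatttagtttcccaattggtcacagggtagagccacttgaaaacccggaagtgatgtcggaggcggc
Gar1 upstream: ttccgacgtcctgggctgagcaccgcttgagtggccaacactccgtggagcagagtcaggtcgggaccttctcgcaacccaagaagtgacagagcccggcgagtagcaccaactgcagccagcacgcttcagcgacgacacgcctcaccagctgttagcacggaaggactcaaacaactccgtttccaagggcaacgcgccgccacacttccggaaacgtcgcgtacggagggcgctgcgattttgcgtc
Nhp2 held 3 copies of the GC-box, and Dkc1, Nop10 and Gar1 held 0. Of the windows not shown, that of Ctc1 held 2 overlapping copies, those of Stn1 and Ten1 held 1 each, and those of Wrap53 held 0. Of 32851 upstream windows of the same length, 32.7% held at least 1 copy. The E-box CACGTG, the motif of Myc-type factors, was in 6.02% of all windows. It was not in the windows of Tert or the 4 H/ACA genes, and was found once each before Ctc1 and before 1 of 2 starts of Wrap53. RefSeq windows were matched for 9 of the 10 genes.

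Wrap53 (gene identifier 216853, chromosome 11 from 69561754 to 69580250, minus strand), also known as TCAB1, had 697 and 734 counts (WT) against 793 and 599 (G3 Terc-/-). The libraries of the genotypes overlapped, at 32.5 ± 0.839 CPM (SD, n = 2) and 34.3 ± 2.07 CPM (SD, n = 2). Its log2 fold change was 0.08 (SE 0.08, 95% interval -0.08 to 0.24, edgeR adjusted p = 0.428), so that neither a small fall nor a rise of a size like that of Dkc1 lies outside the interval. Counts of Wrap53 for each count of Dkc1 were 0.124 and 0.129 in WT against 0.128 and 0.113 in G3 Terc-/- libraries.

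Of the CST genes, Ten1 was lower in G3 Terc-/- ESCs, and Ctc1 and Stn1 were not called. Ctc1 (gene identifier 68964, chromosome 11 from 69015188 to 69036473, plus strand), the large subunit, had 3233 and 3224 counts (WT) against 3327 and 2713 (G3 Terc-/-). With 147 ± 1.87 CPM (SD, n = 2) in WT and 149 ± 0.942 CPM (SD, n = 2) in G3 Terc-/- ESCs, Ctc1 had a log2 fold change of 0.03 (SE 0.05, 95% interval -0.08 to 0.13, edgeR adjusted p = 0.726). Stn1 (gene identifier 108689, chromosome 19 from 47501031 to 47545845, minus strand), the subunit that binds both others, had 462 and 476 counts (WT) against 480 and 395 (G3 Terc-/-). At 21.3 ± 0.220 CPM (SD, n = 2) and 21.6 ± 0.00300 CPM (SD, n = 2), its log2 fold change was 0.02 (SE 0.09, 95% interval -0.16 to 0.20, edgeR adjusted p = 0.863). Ctc1 and Stn1 had the smallest changes of the 9 genes, and 93.5% and 94.5% of all genes had larger ones. The annotated span of Stn1 overlaps the antisense gene Gm19557, with 124 exonic bases in common, and Gm19557 was not called (edgeR adjusted p = 0.487).

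Ten1 (gene identifier 69535, chromosome 11 from 116198855 to 116215318, plus strand), the smallest CST subunit, had the fewest counts of the tested genes, 161 and 170 in WT against 138 and 97 in G3 Terc-/- libraries. Its level fell from 7.52 ± 0.208 CPM (SD, n = 2) to 5.77 ± 0.641 CPM (SD, n = 2) without overlap. The log2 fold change of -0.37 (SE 0.16, 95% interval -0.69 to -0.06, edgeR adjusted p = 0.0472) was the largest of the 9 genes in size and had the widest interval. The call was lost without WT replicate 1 (edgeR adjusted p = 0.0992), WT replicate 2 (0.178) or G3 Terc-/- replicate 2 (0.246, at a log2 fold change of -0.27) and with DESeq2 (0.225). Relative to Ctc1, the ratio of Ten1 counts was 0.0498 and 0.0527 in WT against 0.0415 and 0.0358 in G3 Terc-/- libraries, whereas the ratios of Stn1 to Ctc1, 0.143 and 0.148 against 0.144 and 0.146, overlapped.

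Across the 9 tested genes, the libraries of the genotypes did not overlap in 8, the exception being Wrap53, beside 70.4% of all genes tested.

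**Figure D3:**
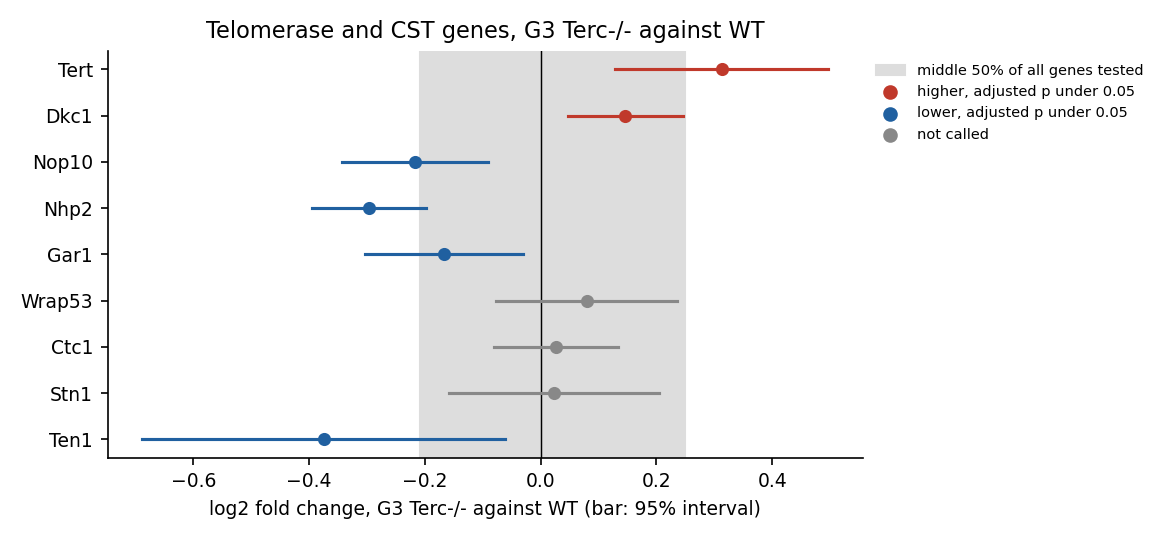
Log2 fold change of each tested gene between G3 Terc-/- and WT ESCs, with its 95% interval from edgeR (bar) and the interquartile range of all 14896 genes tested (grey band, -0.21 to 0.25). Tert and Dkc1 lie above 0, Nop10, Nhp2, Gar1 and Ten1 below it, and the intervals of Wrap53, Ctc1 and Stn1 include 0.

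Nhp2, Wrap53, Ctc1 and Ten1 lie on chromosome 11, whose genes were shifted downwards in their median, though not evenly. Over its 1233 tested genes the median log2 fold change came to -0.10, with 32.4% called lower and 10.4% called higher, while the medians of the 19 other chromosomes lay between -0.03 and 0.09. In bins of 5 Mb, 20 of 25 on chromosome 11 had a median below 0. Bin medians ran from -0.37 to 0.63, and the smallest bin held 4 genes. Of the genes on chromosome 11, 65.2% had a log2 fold change below 0. The genes that start within 5 Mb of the 4 genes had medians of -0.11 (Nhp2), -0.09 (Wrap53), -0.09 (Ctc1) and -0.11 (Ten1), and those around the other 6 genes had medians between 0.00454 and 0.11. Relative to the median of chromosome 11, the log2 fold changes were -0.19 for Nhp2 and -0.27 for Ten1, and 0.18 for Wrap53 and 0.13 for Ctc1. The part of the chromosome in these values was not tested. Relative to the medians of their own chromosomes, Tert stood at 0.29, Dkc1 at 0.16, Nop10 at -0.25 and Gar1 at -0.19.

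**Figure D4:**
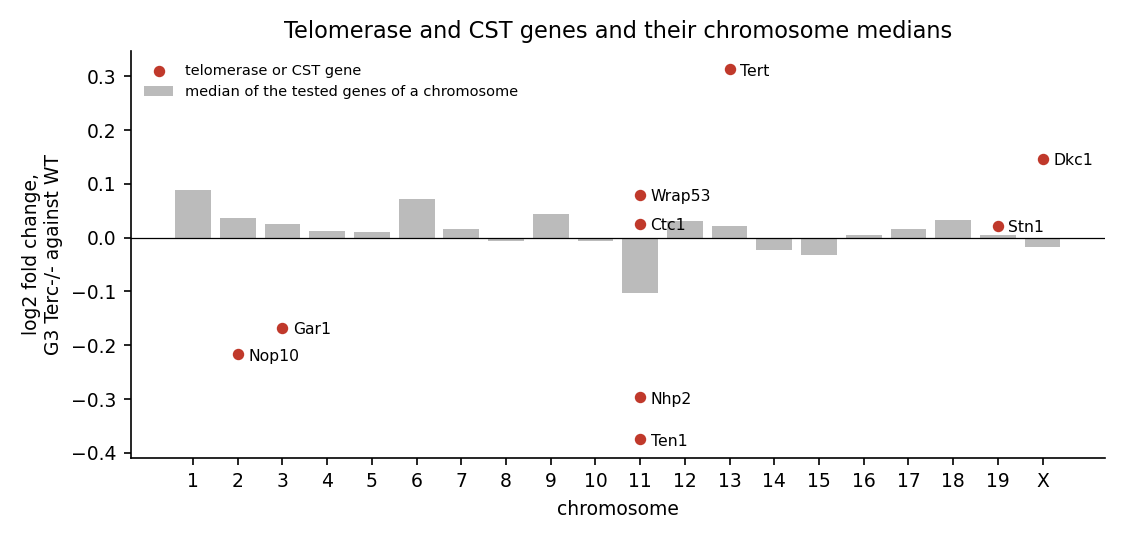
Median log2 fold change of the tested genes of each chromosome (bars, from 0) with the 9 telomerase and CST genes as points on their chromosomes. Chromosome 11 has the lowest median, -0.10, and of its 4 points Nhp2 and Ten1 lie below that median and Wrap53 and Ctc1 above it.

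The genes that work with telomerase and CST were grouped into 6 lists with 67 tested genes. Of these, 8 were called higher (11.9%) and 18 lower (26.9%), beside 21.7% and 21.8% of all genes tested, and 0 passed the study's cutoffs, or 1 (Zcchc7) under 4 of 11 alternatives. Their median log2 fold change was -0.06. Without WT replicate 2 only 14 were called, 6 higher and 8 lower.

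Among 10 genes that assemble H/ACA and other ribonucleoproteins, 1 was higher, 2 were lower and 7 were not called, with a median log2 fold change of -0.04. Naf1, which holds the place of Gar1 while the particle is built, had 2131 and 2172 counts (WT) against 1370 and 1331 (G3 Terc-/-). The fall of Naf1 by 0.54 on the log2 scale (SE 0.07, edgeR adjusted p = 5.25e-09) was larger in size than that of each tested telomerase and CST gene. Ruvbl1, an ATPase also called pontin, rose from 166 ± 3.39 CPM (SD, n = 2) to 244 ± 8.26 CPM (SD, n = 2), a log2 fold change of 0.56 (SE 0.05, edgeR adjusted p = 3.42e-12). The 101 genes within 5 Mb of Ruvbl1 on chromosome 6 stood at a median of 0.57 on the log2 scale, and their part in its value was not tested. Smn1, the survival motor neuron gene, fell by 0.19 (edgeR adjusted p = 0.0179), but was not called without WT replicate 1 (0.175), WT replicate 2 (0.0766) or G3 Terc-/- replicate 1 (0.0605), or with DESeq2 (0.0718).

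The TRiC chaperonin folds Wrap53, among many other proteins. Of its 8 subunit genes, 1 was higher, 3 were lower and 4 were not called, and their median was -0.09. Cct7 was higher by 0.45 on the log2 scale (SE 0.05, edgeR adjusted p = 1.72e-10) and also lies on chromosome 6, where the 104 genes around it had a median of 0.45. Cct2 fell by 0.20 (edgeR adjusted p = 0.000771, but 0.107 without WT replicate 2). Cct5 and Cct4 each fell by 0.14 (edgeR adjusted p = 0.0138 and 0.0155), and neither was called without WT replicate 1 (0.179 and 0.114) or WT replicate 2 (0.114 and 0.217), nor Cct5 without G3 Terc-/- replicate 2 (0.0537). Cct4 lies on chromosome 11.

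The 3' end of telomerase RNA is trimmed and protected by Parn, the nuclear exosome and its adaptors, and cap-binding proteins. In this list of 25 tested genes, 2 were higher, 6 were lower and 17 were not called, with a median of -0.07. Zcchc7, a subunit of the TRAMP complex that feeds RNA to the exosome, had 650 counts in both WT libraries against 317 and 282 in the G3 Terc-/- libraries. Its log2 fold change of -0.99 (SE 0.09, edgeR adjusted p = 3.61e-12) was the largest of all 6 lists in size, and lay close to the cutoff of 1 on that scale (a fold change of 2). Zcchc7 passed the study's cutoffs under 4 of 11 alternatives, at -1.005 without WT replicate 2, -1.044 without G3 Terc-/- replicate 2, -1.006 with no filter and -1.004 with TMM computed without the genes of chromosomes 6 and 11. The 110 genes around Zcchc7 had a median of -0.04. Exosome subunit genes went both ways, with Exosc5 higher by 0.40 (edgeR adjusted p = 9.76e-07) and Exosc2 lower by 0.23 (adjusted p = 0.00128). Ncbp2, the small cap-binding subunit, fell by 0.27 (edgeR adjusted p = 0.00087), though not called without WT replicate 2 (0.0573).

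DNA polymerase alpha-primase, the enzyme that CST recruits, had 2 of 4 genes higher, 1 lower and 1 not called. Pola1, the catalytic subunit of the polymerase, rose from 130 ± 3.96 CPM (SD, n = 2) to 154 ± 0.783 CPM (SD, n = 2), or by 0.24 on the log2 scale (edgeR adjusted p = 0.000359). Pola2, its second subunit, fell by 0.18 (edgeR adjusted p = 0.00854), but without WT replicate 1 or 2 the adjusted p-value was 0.135 or 0.0521. Prim1, the catalytic primase subunit, was higher by 0.15 (edgeR adjusted p = 0.0424), a call kept under 5 of 11 alternatives and lost without WT replicate 1 (0.389), WT replicate 2 (0.0981) and G3 Terc-/- replicate 2 (0.0888), and with DESeq2 (0.145). Prim2, the large primase subunit, had a log2 fold change of 0.06 (95% interval -0.08 to 0.20, edgeR adjusted p = 0.548).

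Of 16 genes listed for regulating Tert or binding it, 2 were higher, 5 were lower and 9 were not called, with a median of -0.04. Myc, a transcription factor known to activate Tert, had 1016 and 1055 counts (WT) against 634 and 494 (G3 Terc-/-). The level of Myc fell from 47.1 ± 0.747 CPM (SD, n = 2) to 27.8 ± 1.07 CPM (SD, n = 2), a log2 fold change of -0.76 (SE 0.08, edgeR adjusted p = 2.98e-11), opposite in sign to that of Tert. Mnt, a repressor that competes with Myc for the partner Max, fell by 0.25 (edgeR adjusted p = 0.000314) and lies on chromosome 11, where the 180 genes around it had a median of -0.13. Klf4, a pluripotency factor known to activate Tert, was higher by 0.38 (edgeR adjusted p = 1.72e-08). Gnl3l, a nucleolar GTPase known to bind Tert, fell by 0.51 (edgeR adjusted p = 1.14e-10). All 4 were called in the same direction under all 11 alternatives.

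The box C/D core, the sister machinery of the H/ACA complex on other small nucleolar RNAs, had 0 genes higher, 1 lower and 3 not called. Fibrillarin (Fbl), its methyltransferase, fell by 0.17 (edgeR adjusted p = 0.0056), a size like that of Gar1, but without WT replicate 1 or 2 the adjusted p-value was 0.102 or 0.0686. Snu13, which belongs to the same protein family as Nhp2, had a log2 fold change of -0.10 (edgeR adjusted p = 0.117), with adjusted p-values over the alternatives from 0.0449 (without G3 Terc-/- replicate 2) to 0.473. Nop58 stood at 0.11 (edgeR adjusted p = 0.0822), but ranged from 0.02 (0.812) without G3 Terc-/- replicate 2 to 0.20 (3.02e-05) without G3 Terc-/- replicate 1. Nop56 stood at 0.06 (edgeR adjusted p = 0.332).

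**Figure D5:**
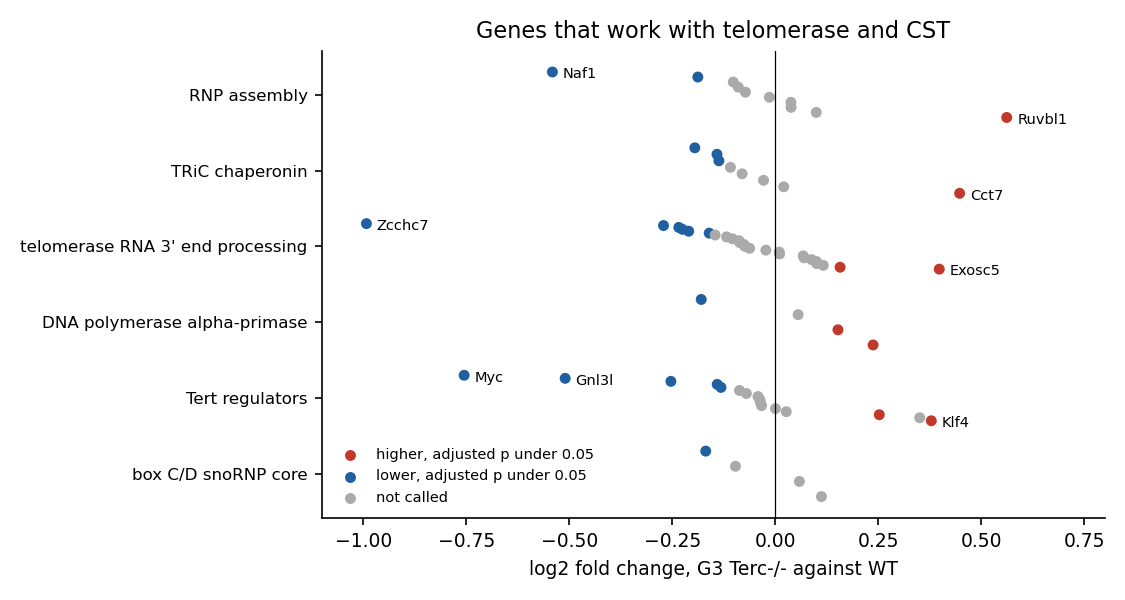
Log2 fold change between G3 Terc-/- and WT ESCs of the 67 tested genes of the 6 lists, with a point for each gene, spread vertically within a list by rank and coloured by call. Zcchc7 and Myc lie furthest to the left, at -0.99 and -0.76, and Ruvbl1 and Cct7, which both lie on chromosome 6, furthest to the right, at 0.56 and 0.45.

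The libraries carried the markers of ESCs, of which 7 of 10 were called higher and 3 lower, with a summed level of 5970 to 6050 CPM in WT and 7160 to 7432 CPM in G3 Terc-/- libraries. Markers of feeder fibroblasts summed to 314 and 201 CPM in WT replicates 1 and 2 and to 361 and 237 CPM in the G3 Terc-/- replicates, with 4 of 11 tested called higher and 0 lower. Neural markers (3 genes, 2 called higher) summed to 57.2 and 58.4 CPM in WT against 87.2 and 85.0 CPM in G3 Terc-/- libraries, and erythroid and endothelial markers (4 genes, 1 of 2 tested called lower) to 90.9 and 88.2 CPM against 57.1 and 53.3 CPM. No marker had 0 counts in all 4 libraries. The part of these cell types in the values of the telomerase and CST genes was not tested.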

How the data were processed

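Gene counts of 2 WT and 2 G3 Terc-/- ESC libraries were analysed, grouped by their titles. The authors deposited raw counts per gene without normalization, from paired-end reads of 150 bases. The submitters' processing notes name Trim Galore, STAR, featureCounts and mm10, and the strand setting and annotation are not given in the sources used here. Of 24116 NCBI gene identifiers, 24061 were matched to a symbol in RefSeq (GRCm38.p6) and 21170 to exon lengths in GENCODE M21.

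From the counts, genotypes were compared with edgeR 4.0.16 in R 4.3.3 (TMM, filterByExpr, quasi-likelihood test, a model of genotype alone), and p-values were adjusted by Benjamini-Hochberg over the 14896 genes tested. This count test replaced the study's Cufflinks, which needs reads. Standard errors were derived from the F statistics. Library totals ranged from 18047995 to 22520017, so that 1 count was worth 0.0451 to 0.0548 CPM. Transcripts of other genes that match 300 or more bases at 90% identity, searched with blastn 2.17.0, were found for Dkc1 (Gm13776 and AC102437.1), Gar1 (Gm13350) and Nhp2 (Gm47261), at identities of 90.8% to 93.0%, so that their counts are less certain. Scripts were tested on simulated counts with 100 genes changed at each of 2 sizes. Of these, 83% were recovered at an absolute log2 fold change of 1 and 50.5% at 0.4. All tested telomerase and CST genes had changes smaller in size than 0.4, and genes not called may still have changed.

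The genes and lists were chosen with earlier results of these data known. The text names all 10 genes, every gene of lists of up to 5 genes, up to 4 called genes with the largest changes of longer lists, and genes that overlap the 10, of which 1 is not reported here. Alternatives were DESeq2 1.42.0, its size factors in edgeR, no filter, a filter at 10 CPM, the study's cutoffs, a replicate block, each library left out, and other scalings. Counts of transposable elements were not used. The figures were drawn with matplotlib 3.10.9.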

Additional observations from a re-analysis of the deposited data

How the results depend on the processing

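The sign of every tested telomerase and CST gene was kept in all 98 refits (each gene under each alternative), and 16 of these lost a call. From 6 of the 9 genes called, the count came to 3 with DESeq2, to 0 at the study's cutoffs and to between 1 and 5 with each library left out (1 without WT replicate 1, 3 without WT replicate 2, 5 without G3 Terc-/- replicate 1 or 2). From 26 pathway genes called, it came to 0 at the study's cutoffs and to between 14 and 28 with a library left out (16 and 14 without WT replicates 1 and 2). Of all genes, 6479 were called, against 1170 at the study's cutoffs, 4366 with DESeq2 and between 4691 and 6177 with a library left out. With 1 library left in a genotype, that library was assumed to vary like the other group. With a replicate block for the numbers that the genotypes share, 7134 genes, 6 telomerase and CST genes and 33 pathway genes were called. The numbers were not shown to pair the samples, since the correlation of the deviations was 0.110 with only 2 pairs. Summed feeder markers, however, were higher in replicate 1 than in replicate 2 of WT (314 and 201 CPM) and of G3 Terc-/- ESCs (361 and 237 CPM). Chosen after seeing the data, scaling by library totals gave 2 telomerase and CST genes higher and 2 lower (2 and 4 with TMM), 10 and 13 pathway genes (8 and 18 with TMM) and 3684 and 2786 genes (3238 and 3241 with TMM), and TMM without the genes of chromosomes 6 and 11 gave 6, 28 and 6492 calls. The stricter filter left out Ten1 and lost Gar1 (edgeR adjusted p = 0.0619), and library totals lost Gar1 (0.11) and Ten1 (0.0749). With no filter Terc was tested too, and 7 of 10 telomerase and CST genes were called, 2 higher and 5 lower. The added call was Terc, which in that fit also passed the study's cutoffs. The median of chromosome 11 stayed between -0.12 (without G3 Terc-/- replicate 1) and -0.07 (library totals). Of 285 refits of the 26 named pathway and overlapping genes, 27 lost and 5 gained a call, and 1 changed sign (Rmnd5b, not called, between -0.10 without G3 Terc-/- replicate 1 and 0.0126 without G3 Terc-/- replicate 2). Within 2 Mb in place of 5 Mb, the genes around 6 in place of 4 of the 10 genes had a median below 0. The cause of these shifts was not tested. Depth limits Terc, at 9 counts in all, and Ten1 most.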
